A study of Mus musculus with 18 samples.

Results

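The 10 genes described here belong to fibroblast growth factor (FGF) signalling: the ligands Fgf3, Fgf5 and Fgf8, the receptors Fgfr1 and Fgfr2, the inhibitors Spry2, Spry4 and Dusp6, and the transcription factors Etv4 and Etv5. They were chosen by name, and all 10 were found among the 22997 nuclear genes of the count files. Their transcripts were counted in single cells of whole C57BL/6 WT mouse embryos, with no treatment and no altered allele in any group. There were 6 libraries from embryonic day (E) 6.75 and 12 from E7.5, each of 96 cells. The E6.75 cells were picked by hand from embryos that had lost their extraembryonic part and were dissociated singly, and they were processed with CEL-Seq2. The E7.5 cells were sorted by flow cytometry from pooled embryos of 1 or 2 litters, trimmed so that extraembryonic mesoderm was kept, and were processed with mCEL-Seq2. Stage, way of collection and protocol version changed together and cannot be told apart. The embryo that gave a cell was not known, and nothing in the labels says that libraries held different embryos. P-values between stages thus measure the spread between these libraries. With the library as a block, p-values between cell groups measure how the difference within a library varied from library to library. Both spreads may be technical in part.

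FGF ligands are secreted proteins that bind receptor tyrosine kinases together with heparan sulphate, and the bound receptors signal through the Ras-ERK kinase cascade. The pathway switches on its own inhibitors, the Sprouty proteins and the ERK phosphatase Dusp6, along with the ETS-family factors Etv4 and Etv5, so the RNA of these genes is widely used as a readout of FGF-ERK activity. In the gastrulating mouse embryo, Fgf5 is known as a gene of the epiblast, Fgf8 as a gene of the primitive streak that mesoderm cells need to move away from it, and Fgfr1 as the main receptor of the epiblast and early mesoderm.

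Cells with at least 2000 nuclear transcripts were kept, which left 543 E6.75 cells (85 to 96 per library) and 429 E7.5 cells (0 to 71 per library). E7.5 replicate 5 had 0 kept cells and entered no comparison, so E7.5 is represented by 11 libraries. A library's kept cells held 2918240 to 5486857 transcripts in all at E6.75, and its median cell 22331 to 54686. At E7.5 these were 488326 to 2615333 and 18982 to 57139.6. Levels are given in CPM, counts scaled to the same total of nuclear transcripts, after adding up the kept cells of a library. In such sums, fewer cells that express a gene and less RNA per cell cannot be told apart, so shares of cells with at least 1 transcript are given beside them. CEL-Seq2 counts the 3' ends of transcripts with molecular identifiers, so CPM values of different genes can be set side by side without a length correction.

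In the GENCODE M21 annotation of GRCm38, Fgf3 lies on chromosome 7 at 144838083 to 144844436 (plus strand), Fgf5 on chromosome 5 at 98254184 to 98277030 (plus strand) and Fgf8 on chromosome 19 at 45736798 to 45742915 (minus strand). Fgfr1 lies on chromosome 8 at 25513654 to 25575718 (plus strand) and Fgfr2 on chromosome 7 at 130162451 to 133123350 (minus strand). Dusp6 is on chromosome 10 at 99263231 to 99267489 (plus strand) and Spry2 on chromosome 14 at 105891947 to 105896819 (minus strand). Etv4 is on chromosome 11 at 101769742 to 101785371 (minus strand) and Etv5 on chromosome 16 at 22381309 to 22439719 (minus strand). The Fgfr2 gene model overlaps 69 other annotated genes and Fgfr1 overlaps the antisense gene Gm16159. The build and the use of strand in the authors' counting are not given in the sources used here, so counts of these receptors could hold reads of an overlapping gene.

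Promoter sequences are shown for members that carry the difference between stages: the ligands Fgf3 and Fgf5, the inhibitor gene Dusp6 and the target gene Etv5. Each is the 250 bases before a transcription start in RefSeq annotation of GRCm38.p6, and capitals mark the letters GGAAGT or their reverse complement ACTTCC, which hold the GGAA core that ETS-family proteins bind. For Fgf3 and for the Etv5 start shown, the RefSeq start and the whole printed window lie inside the GENCODE gene model. The Etv5 start shown lies downstream of its first start, whose window is not printed.
Fgf3, chr7:144838362-144838611 (+): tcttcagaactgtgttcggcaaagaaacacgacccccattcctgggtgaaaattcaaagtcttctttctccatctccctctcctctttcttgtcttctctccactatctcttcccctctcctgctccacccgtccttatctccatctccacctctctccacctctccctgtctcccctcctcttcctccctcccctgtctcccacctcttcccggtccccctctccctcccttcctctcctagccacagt
Fgf5, chr5:98253934-98254183 (+): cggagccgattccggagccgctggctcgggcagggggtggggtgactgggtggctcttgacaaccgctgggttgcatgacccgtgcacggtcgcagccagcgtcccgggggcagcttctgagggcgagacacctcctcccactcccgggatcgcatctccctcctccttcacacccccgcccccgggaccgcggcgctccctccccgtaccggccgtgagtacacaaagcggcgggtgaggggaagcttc
Dusp6, chr10:99262981-99263230 (+): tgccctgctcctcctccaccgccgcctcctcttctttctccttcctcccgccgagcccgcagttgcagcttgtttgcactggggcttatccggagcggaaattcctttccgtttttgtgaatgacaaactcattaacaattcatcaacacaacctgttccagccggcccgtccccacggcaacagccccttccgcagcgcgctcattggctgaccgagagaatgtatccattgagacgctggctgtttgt
Etv5, other start, chr16:22438369-22438618 (-): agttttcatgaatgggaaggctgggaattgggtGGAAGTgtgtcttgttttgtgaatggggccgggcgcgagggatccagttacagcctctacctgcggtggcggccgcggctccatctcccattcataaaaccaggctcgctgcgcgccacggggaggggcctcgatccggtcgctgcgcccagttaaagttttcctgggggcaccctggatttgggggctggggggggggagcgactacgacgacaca
The window around this other Etv5 start holds GGAAGT 2 times on either strand, once in the stretch printed and once in the 50 bases after the start. Its first start holds it 0 times, as do the windows of the other 5 members with an entry, Fgf3, Fgf5, Fgfr2, Dusp6 and Spry2. Of 32851 promoter windows of 300 bases, 23.8% held GGAAGT on either strand, 3.89% held the longer CCGGAAGT and 96.0% held GGAA. Fgf8, Fgfr1, Etv4 and Spry4 have no entry. A match describes letters only.

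Between the stages, 8 of the 10 genes differed: Fgf3, Fgfr1 and Fgfr2 were higher at E7.5, and Fgf5, Fgf8, Spry4, Dusp6 and Etv5 were lower. The test was edgeR's quasi-likelihood F test on the library sums with Benjamini-Hochberg adjustment over 9998 genes and a threshold of 0.05. By that rule 38.8% of all genes were called (20% higher and 18.8% lower), so a call alone does not set these genes apart. The median log2 difference (E7.5 over E6.75) was -0.91 over the 10 genes and 0.03 over all genes.

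Fgf5 was the highest of the 3 ligands at E6.75 and lower at E7.5. Its level was 225, 163, 230, 203, 190 and 179 CPM in E6.75 replicates 1_10, 1_11, 2_12, 2_13, 2_14 and 2_9. At E7.5 it ran from 20.04 to 93.5 CPM with a median of 37.5 (45.7 ± 26.9, SD, n = 11), so that every E6.75 library lay above every E7.5 library. The log2 difference was -2.23 ± 0.25 (SE; edgeR adjusted p = 6.64e-07), and the mean share of cells with a transcript went from 84.9% to 41.2%.

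Fgf8, the streak ligand, was lower at E7.5 as well. It was at 23.2, 28.0, 32.2, 57.8, 44.1 and 51.0 CPM in the 6 E6.75 libraries in the same order, against 1.49 to 20.8 CPM with a median of 4.75 at E7.5 (7.60 ± 6.13, SD, n = 11). The ranges did not overlap, and the log2 difference was -2.63 ± 0.31 (edgeR adjusted p = 1.20e-06). The share of cells with Fgf8 was 47.1% at E6.75 and 15.8% at E7.5.

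Fgf3, a ligand known from later roles in the ear and tail, showed the opposite order. At E6.75 its 161 transcripts were spread over the 6 libraries as 1, 3, 1, 95, 61 and 0, that is 0.331, 0.875, 0.343, 17.3, 11.8 and 0 CPM. Replicates 2_13 and 2_14 thus held nearly all of it. These were also the libraries with most Mesp1, which encodes a factor of early mesoderm (83.3 and 42.7 CPM, against 0 to 3.31 CPM in the other 4). They were the deepest E6.75 libraries as well (median kept cell 54686 and 53967 transcripts, against 22331 to 35382). Their cell barcodes also had a different layout from those of the other 4. Between libraries, Mesp1, depth and layout thus went together, and their parts in the Fgf3 level were not tested. At E7.5, 974 transcripts gave 17.8 to 122 CPM with a median of 64.5 (66.0 ± 33.2, SD, n = 11), above every E6.75 library. The log2 difference was 3.43 ± 0.57 (edgeR adjusted p = 8.05e-05), and the share of cells with Fgf3 went from 6.01% to 43.2%.

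Both receptors were higher at E7.5, by different amounts. Fgfr1 was at 118, 95.4, 148, 118, 124 and 86.3 CPM in the E6.75 libraries and at 113 to 241 CPM with a median of 179 at E7.5 (178 ± 38.3, SD, n = 11). The ranges overlapped, and the log2 difference was 0.59 ± 0.14 (edgeR adjusted p = 0.00157). Nearly the same share of cells had an Fgfr1 transcript at both stages (79.3% and 81.4%). After each cell was thinned to 2000 transcripts, the shares were 15.6% and 26.3%, and the log2 difference was 0.91.

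Fgfr2, known as a receptor of extraembryonic tissues at these stages, was a scarce transcript at E6.75. It was at 7.28, 7.001, 13.02, 6.197, 5.24 and 4.13 CPM in the 6 libraries and at 9.51 to 52.0 CPM with a median of 31.3 at E7.5 (31.0 ± 14.7, SD, n = 11). Replicate 2_12 at E6.75 lay above the lowest E7.5 library. The log2 difference was 2.14 ± 0.31 (edgeR adjusted p = 1.29e-05), and the share of cells with a transcript went from 14.1% to 39.9%. The 35 E6.75 cells with at least 0.5% of their transcripts from visceral endoderm marker genes held 34.3 CPM of Fgfr2, against 5.68 CPM in the other kept cells. When cells with smaller marker shares (0.05% for visceral endoderm, 0.02% for extraembryonic ectoderm) were left out too, a setting chosen after the data were seen, the log2 difference was 3.49.

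Of the inhibitors, Dusp6 and Spry4 were lower at E7.5 and Spry2 was not called. Dusp6, which removes phosphate from ERK, was at 113, 125, 160, 150, 118 and 113 CPM at E6.75 and at 31.3 to 83.5 CPM with a median of 53.4 at E7.5 (54.9 ± 19.99, SD, n = 11). The ranges were apart, and the log2 difference was -1.30 ± 0.18 (edgeR adjusted p = 7.59e-06). Spry4 (chromosome 18, 38586247 to 38601415, minus strand), a Sprouty inhibitor of receptor tyrosine kinase signalling, was at 52.3, 46.1, 86.4, 62.0, 61.0 and 46.6 CPM at E6.75 and at 4.83 to 51.2 CPM with a median of 26.8 at E7.5. Its ranges overlapped between 46.1 and 51.2 CPM, and the log2 difference was -1.28 ± 0.29 (edgeR adjusted p = 0.00150). Its relative Spry2 ranged from 24.2 to 55.5 CPM at E6.75 (41.2 ± 12.3, SD, n = 6) and from 10.4 to 66.8 CPM at E7.5 (29.8 ± 17.9, n = 11). The Spry2 ranges overlapped widely, and its log2 difference was -0.66 ± 0.28 (edgeR adjusted p = 0.0695).

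Of the ETS factors, Etv5 was lower at E7.5, while Etv4 was not called. Etv5 was at 112, 144, 139, 148, 144 and 127 CPM at E6.75 and at 38.3 to 89.0 CPM with a median of 63.1 at E7.5 (63.6 ± 18.2, SD, n = 11). The groups did not overlap, and the log2 difference was -1.17 ± 0.14 (edgeR adjusted p = 2.01e-06). Etv4, at 13.7 to 25.7 CPM at E6.75 (20.4 ± 4.60, n = 6) and 8.19 to 28.2 CPM at E7.5 (17.5 ± 6.42, n = 11), differed by -0.26 ± 0.19 on the log2 scale (edgeR adjusted p = 0.309). Etv4 was thus the member with the smallest stage difference, and its E6.75 range lay within its E7.5 range.

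Library ranges of the 2 stages did not overlap for 5 members, Fgf3, Fgf5, Fgf8, Dusp6 and Etv5, against 8.24% of the 9998 genes tested. Shares of cells after thinning to 2000 transcripts kept the same order as the unthinned ones for all 10 members. The thinned shares were 28.3% and 6.50% for Fgf5, 6.57% and 0.787% for Fgf8, 1.39% and 11.3% for Fgf3, and 2.21% and 5.78% for Fgfr2. For the pathway readouts they were 21.2% and 9.39% for Dusp6, 21.2% and 10.9% for Etv5, 10.4% and 7.37% for Spry4, 7.62% and 6.30% for Spry2, and 3.50% and 2.66% for Etv4. The summed level of 6 epiblast markers, none of them at 0, was 1565 to 2028 CPM at E6.75 and 267 to 770.2 CPM at E7.5, and that of the visceral endoderm markers 224 to 1119 CPM and 14.8 to 442 CPM. The part of these cell types in the stage differences was not tested.

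**Figure D1:**
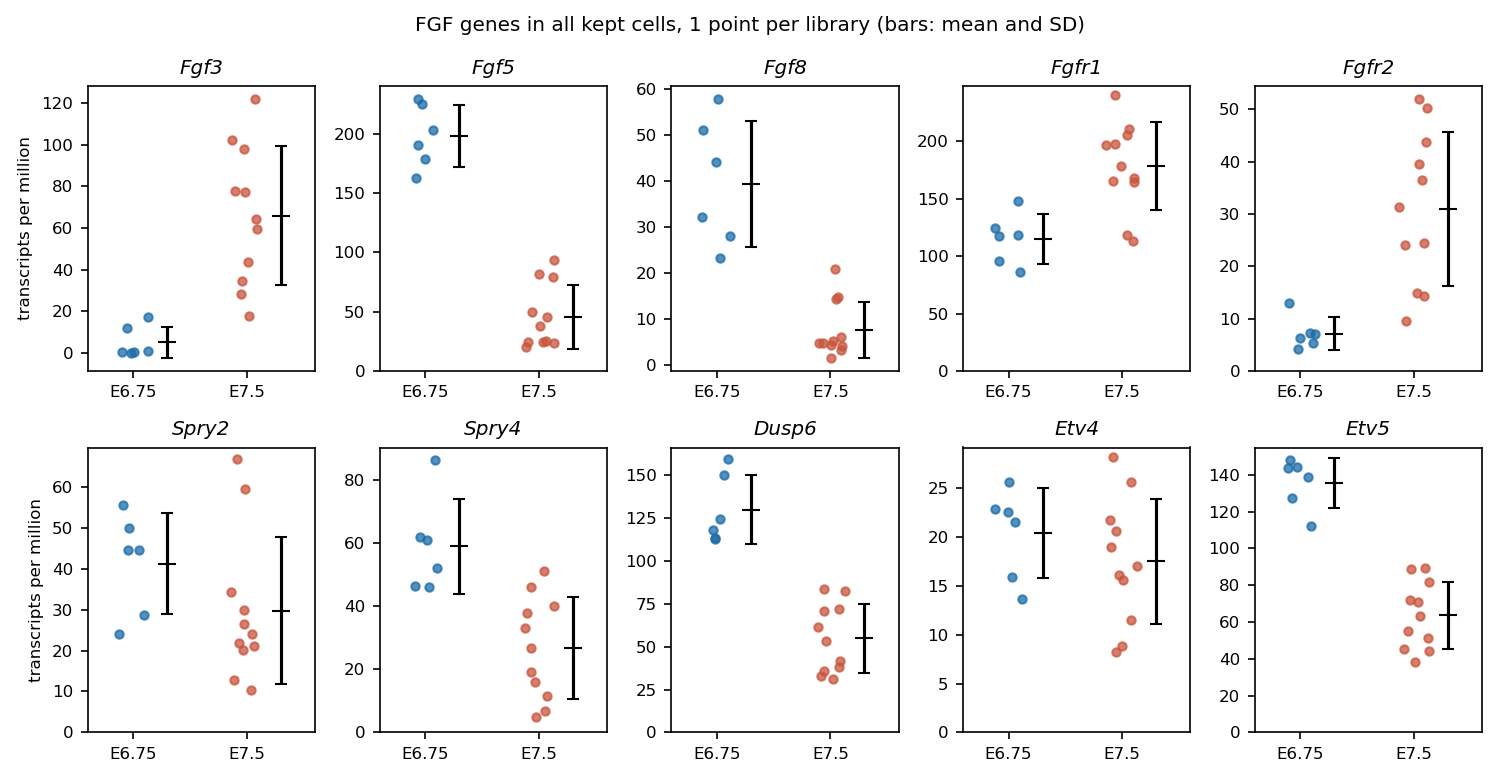
Level of each of the 10 FGF genes in CPM (the axis writes the unit out; linear), with 1 point for each of 6 E6.75 libraries and 11 E7.5 libraries and the mean and SD as bars. Fgf5, Fgf8, Dusp6 and Etv5 have every E6.75 point above every E7.5 point, Fgf3 has the reverse, and Etv4 and Spry2 overlap.

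The cells were then grouped by the transcription factor genes T (primitive streak and axial mesoderm), Mesp1 (early mesoderm), Foxa2 (definitive endoderm, axial mesoderm and visceral endoderm) and Sox2 (epiblast and neural ectoderm), counting a cell as positive with at least 1 transcript. The study's title is about when mesoderm and endoderm separate, and these 4 genes mark the steps. The 35 E6.75 cells and 2 E7.5 cells over the visceral endoderm marker share were set aside first, which left 508 and 427 cells, and no cell passed the share for extraembryonic ectoderm (0.2%). The grouped cells fell into 6 exclusive classes, and class levels below are means over libraries with at least 3 cells of the class. Cells called T alone held T without Mesp1 and Foxa2, whether or not they held Sox2. The classes with Mesp1 or Foxa2 could likewise hold T and Sox2, while Sox2-alone cells held none of the other genes. Cells with none of the 4 genes had a median depth of only 6378 transcripts at E6.75 and 12369 at E7.5, against 45440 or more and 26921 or more in the other classes.

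At E6.75, Fgf3 was found mainly in cells with Mesp1. It was at 52.5 ± 45.7 CPM (SD, n = 3 libraries) in cells with Mesp1 and no Foxa2 and at 19.8 and 39.1 CPM in the 2 libraries with cells holding both. Cells with T alone, with Foxa2 and no Mesp1, and with Sox2 alone held 0.576 ± 0.893, 0.809 ± 0.920 and 0.525 ± 0.720 CPM (n = 6 each), which do not differ beyond their spread. None of the 86 cells lacking all 4 genes held an Fgf3 transcript, which allows a share of cells with a transcript of up to 3.49% at their low depth and sets no limit on cells that express the gene.

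At E7.5, Fgf3 was found in most classes. It was at 85.1 ± 36.8 CPM in cells with Mesp1 and no Foxa2 (40.7 to 168, n = 11), 58.7 ± 47.3 CPM in cells with T alone (0 to 128, n = 10) and 107 ± 99.0 CPM in cells with none of the 4 (0 to 295, n = 8). Cells with Sox2 alone held 9.49 ± 12.9 CPM (0 to 31.9, n = 6). Cells with Foxa2 and no Mesp1 held 178 CPM in replicate 2 and 0 to 3.62 CPM in the other 7 libraries. The last 2 classes thus lay low outside replicate 2, and the ranges of the first 3 overlapped. Cells with both Mesp1 and Foxa2 held 74.1 and 176 CPM in 2 libraries, and 10 of all 12 such cells had an Fgf3 transcript.

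Fgf8 at E6.75 was highest in cells with Mesp1 and Foxa2 (88.2 and 95.8 CPM in 2 libraries), then in cells with Foxa2 and no Mesp1 (60.4 ± 17.02, n = 6) and with T alone (56.5 ± 18.2, n = 6). It was at 37.4 ± 30.6 CPM in cells with Mesp1 and no Foxa2 (n = 3) and at 21.7 ± 10.6 CPM in cells with Sox2 alone (n = 6). The Foxa2 and T classes overlapped, and the lowest library of either Foxa2 class lay above the highest Sox2-alone library (38.4 CPM). At E7.5, class means of Fgf8 lay between 1.88 and 9.66 CPM, with libraries at 0 in 5 of the 6 classes, so no order can be read among them.

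Fgf5 at E6.75 went from 228 ± 46.7 CPM in cells with Foxa2 and no Mesp1 (n = 6) and 205 ± 17.5 in cells with Sox2 alone (n = 6) to 162 ± 59.0 in cells with T alone (n = 6) and 109 ± 40.1 in cells with Mesp1 and no Foxa2 (n = 3). At E7.5 the order of these classes was 73.3 ± 48.8 (n = 8), 54.4 ± 39.9 (n = 6), 42.3 ± 36.5 (n = 10) and 31.3 ± 24.95 CPM (n = 11). Neighbouring classes overlapped in both orders, and these 4 of the 6 classes came in the same order at both stages. The other 2 did not keep their place: cells with both Mesp1 and Foxa2 held 157 CPM at E6.75 and 16.4 at E7.5 (n = 2 each), and cells with none of the 4 genes 179 ± 58.8 (n = 6) and 27.1 ± 45.5 (n = 8).

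Class means of Fgfr1 lay within 98.9 and 158 CPM at E6.75. At E7.5 they spread from 142 ± 50.8 CPM in cells with Foxa2 and no Mesp1 (n = 8) and 144 ± 39.9 in cells with Sox2 alone (n = 6) to 225 ± 67.9 in cells with Mesp1 and no Foxa2 (n = 11) and 274 and 324 in the 2 libraries with cells holding both. Fgfr2 had the reverse low point at E7.5, with 18.8 ± 12.6 CPM in cells with Mesp1 and no Foxa2 (n = 11), against 38.0 ± 22.6 in cells with Foxa2 and no Mesp1 (n = 8) and 40.6 ± 14.6 in cells with Sox2 alone (n = 6). The 2 libraries of cells with both Mesp1 and Foxa2 lay above every Sox2-alone, T-alone and Foxa2-without-Mesp1 library for Fgfr1 at E7.5.

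Dusp6 was at 120 ± 18.7 CPM in Sox2-alone cells and 140 ± 43.7 in T-alone cells at E6.75 (n = 6 each), and at 167 ± 9.75 in cells with Mesp1 and no Foxa2 (n = 3). At E7.5 the Sox2-alone cells held 36.9 ± 46.0 CPM (n = 6), the Mesp1 cells without Foxa2 62.3 ± 33.7 (n = 11) and the T-alone cells a median of 56.5 (11.5 to 365, n = 10). The highest of the last group came from few transcripts in 3 cells of replicate 9, whose 15 kept cells held 35 Dusp6 transcripts in all. The next library was at 112 CPM. Etv4 at E7.5 was at 4.97 ± 5.47 CPM in Sox2-alone cells (0 to 12.6, n = 6) and at 24.7 ± 9.09 in Mesp1 cells without Foxa2 (6.52 to 36.7, n = 11), whereas at E6.75 the same classes held 21.9 ± 5.21 (n = 6) and 20.5 ± 2.34 CPM (n = 3). Etv4 was under edgeR's filter on low counts between cell groups at E7.5, so it has no call there. Without a test, it was higher in the Mesp1-positive cells of 10 of 11 libraries and the T-positive cells of 9 of 11. For Foxa2 this was 6 of 9 and for Sox2 6 of 10.

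**Figure D2:**
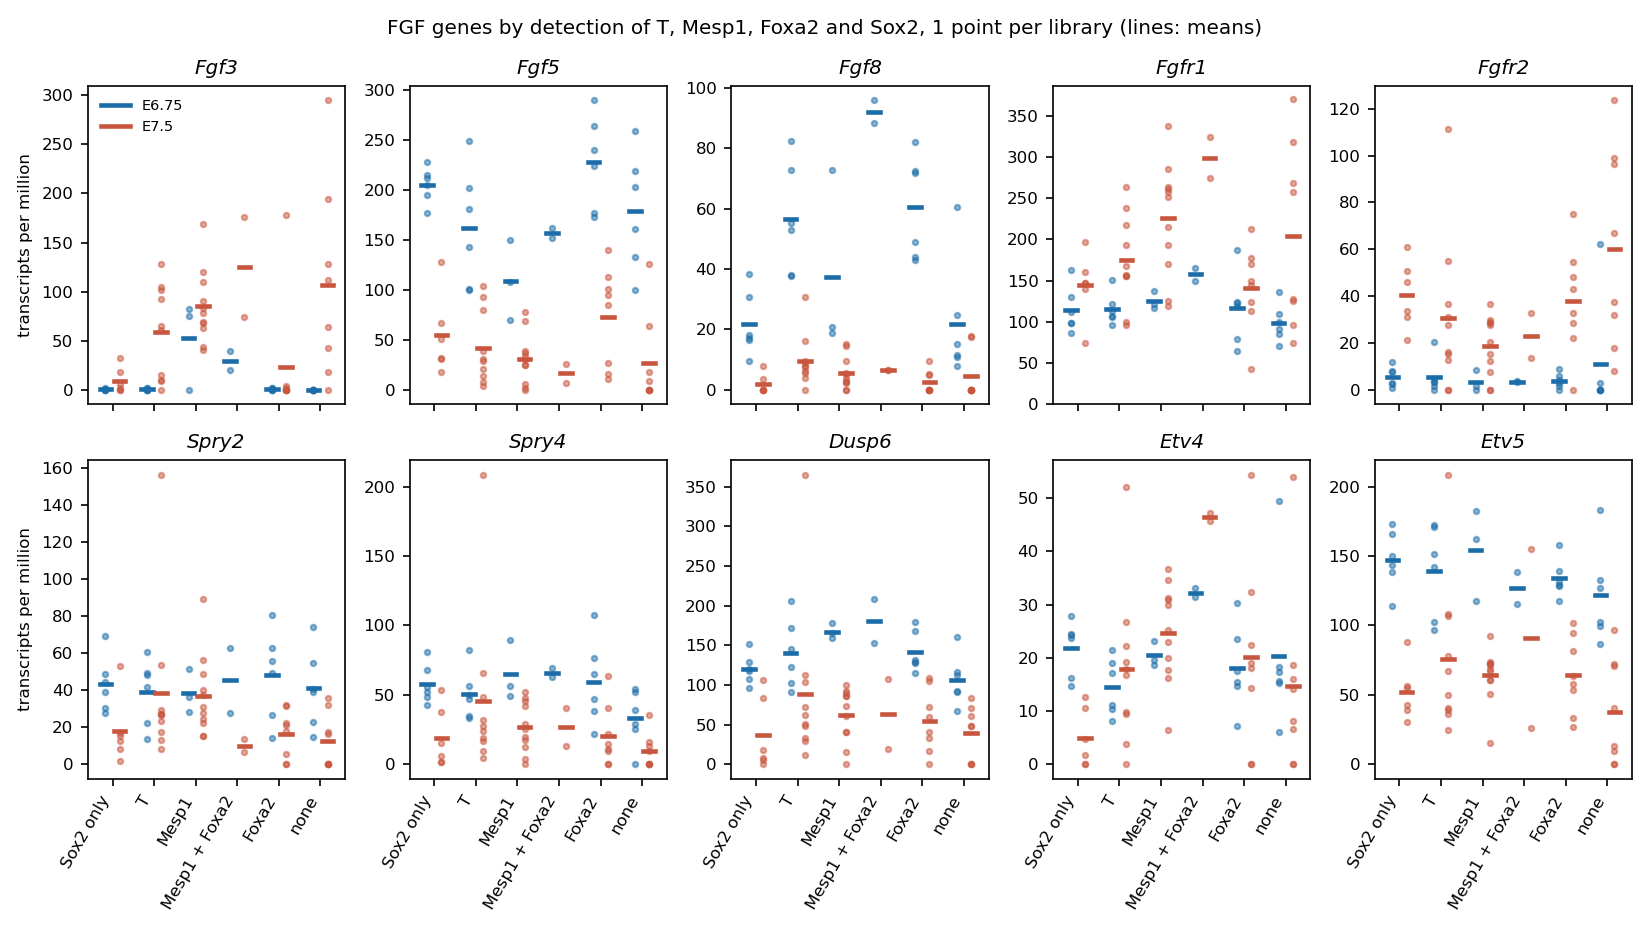
Level of the 10 FGF genes in 6 exclusive cell classes at each stage, in CPM (linear axis), with 1 point per library that had at least 3 cells of the class and a line at the mean. Fgf3 at E6.75 stands above 3 CPM only in the classes with Mesp1, and Fgf8 is highest at E6.75 in the classes with Foxa2 or T.

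Gate comparisons set positive against negative cells of the same libraries, with the library as a block in the edgeR fit and at least 3 cells required in each gate. Every log2 difference below is positive over negative cells, and each gate's depth is the median over libraries of the median cell. Members under edgeR's filter on low counts were not tested, so the number tested is given each time.

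Cells with T at E6.75 held more Fgf8 and Dusp6. Of 9 members tested, 2 were called, against 3.32% of all genes. In replicates 1_10, 1_11, 2_12, 2_13, 2_14 and 2_9, Fgf8 was at 39.7, 77.5, 77.8, 70.2, 63.9 and 52.2 CPM in T-positive cells and at 17.4, 17.2, 18.3, 37.2, 22.0 and 48.1 CPM in T-negative cells. It was higher in the positive cells of 6 of 6 libraries (log2 difference 1.23 ± 0.19, edgeR adjusted p = 0.000157), with the smallest gap in replicate 2_9. Dusp6 was at 105.5 to 202 CPM in positive and 100 to 149 CPM in negative cells and was higher in 5 of 6 libraries (0.38 ± 0.08, edgeR adjusted p = 0.00585). Positive cells were deeper (59872 against 32890 transcripts). The 6 epiblast markers summed to 1098 to 1717 CPM in positive and 1703 to 2158 CPM in negative cells, and their part was not tested. With cells thinned to 10000 transcripts, Fgf8 gave 0.94 (adjusted p = 0.102) and Dusp6 0.79 (0.00375). Dusp6 did not pass without the library block (0.37, edgeR adjusted p = 0.395) or at 2000 transcripts per cell (0.47, 0.905).

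At E7.5, 0 of 7 members tested passed between T-positive and T-negative cells, against 2.16% of all genes, by edgeR or DESeq2. In all, 4 members had an unadjusted p under 0.05 in edgeR (Dusp6, Fgfr1, Fgfr2 and Spry2), and Fgfr1 came closest to the threshold (0.45 ± 0.12, adjusted p = 0.0506, higher in 9 of 11 libraries). Positive cells were deeper here too (38720 against 26480 transcripts).

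Cells with Mesp1 held less Fgf5 at both stages. At E6.75, the 3 libraries with enough Mesp1-positive cells were 2_13, 2_14 and 2_9, where Fgf5 was at 129, 100.3 and 160.5 CPM in positive and 229, 203 and 169 CPM in negative cells. It was lower in 3 of 3 libraries (log2 difference -0.67 ± 0.14, edgeR adjusted p = 0.0210) and was the only one of 8 members tested to be called, against 1.13% of all genes. The call did not pass with DESeq2 (adjusted p = 0.184), without replicate 2_13 (-0.57, edgeR adjusted p = 0.306) or without the library block (0.152). At 10000 transcripts per cell the difference was -1.64 (edgeR adjusted p = 2.06e-05), and at 2000 it was -0.036 (0.999). Thinning to 2000 lowered the share of kept cells with Mesp1 from 29.2% to 6.25% in replicate 2_13 and from 17.9% to 5.26% in 2_14. Most Mesp1-positive cells thus moved to the negative gate there.

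At E7.5, 2 of 8 members tested were called between Mesp1-positive and Mesp1-negative cells, against 6.3% of all genes. Fgf5 was at 0 to 77.8 CPM with a median of 26.5 in positive cells and 16.0 to 141 CPM with a median of 50.1 in negative cells, lower in 9 of 11 libraries (-0.93 ± 0.22, edgeR adjusted p = 0.00782). Fgfr1 was at 120 to 354 CPM with a median of 253 in positive and 99.8 to 205 CPM with a median of 158 in negative cells. It was higher in the positive cells of 11 of 11 libraries (0.54 ± 0.10, edgeR adjusted p = 0.000943). Positive cells were deeper (40090 against 25525 transcripts), and Fgfr1 gave 0.47 (adjusted p = 0.0832) at 10000 transcripts per cell. The 6 epiblast markers summed to 254 to 531 CPM in positive and 281 to 1050 CPM in negative cells at E7.5, and to 844 to 1773 and 1810 to 1907 CPM at E6.75, and their part in the Fgf5 differences was not tested.

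Cells with Foxa2 held more Fgf8 at E6.75 and more Fgf5 at E7.5. At E6.75, Fgf8 was at 43.9, 43.1, 82.1, 77.4, 59.6 and 73.6 CPM in Foxa2-positive cells and at 19.5, 27.7, 18.7, 36.4, 38.0 and 35.8 CPM in negative cells of replicates 1_10, 1_11, 2_12, 2_13, 2_14 and 2_9. The groups did not overlap, and the log2 difference was 1.09 ± 0.15 (edgeR adjusted p = 0.000694), the 1 call among 8 members tested, against 0.465% of all genes. It did not pass without the library block (1.17, adjusted p = 0.0612) or at 10000 transcripts per cell (0.83, adjusted p = 0.664). The positive cells' depth was 50088 and the negative cells' 34225 transcripts. The 12 visceral endoderm markers, none at 0, still summed to 7.19 to 289 CPM in positive and 25.2 to 130.0 CPM in negative cells, and with the lower marker shares set aside the Fgf8 difference was 1.10 (edgeR adjusted p = 0.000127).

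At E7.5, Fgf5 was at 10.8 to 227 CPM with a median of 84.9 in Foxa2-positive cells and at 15.5 to 78.3 CPM with a median of 29.8 in negative cells of 9 libraries. It was higher in 7 of 9 (1.34 ± 0.28, edgeR adjusted p = 0.00489), the 1 call among 7 members tested, against 2.52% of all genes. Without replicate 2 it was 1.20 (adjusted p = 0.0618). Fgf3 was lower in the positive cells of 8 of 9 libraries and higher in replicate 2 (177 against 106 CPM), and it was not called (-1.15 ± 0.36, edgeR adjusted p = 0.0969). Without replicate 2 it was called (-2.49, edgeR adjusted p = 3.69e-05), as it was with a gate of at least 2 transcripts (-2.07, 0.000827), with no filter on low counts (-1.28, 5.09e-06) and with DESeq2 (-2.39, adjusted p = 0.0260). In 4 of the 9 libraries the positive cells held 0 Fgf3 transcripts, each over 3 or 4 cells. The 6 definitive endoderm markers summed to 445 to 1374 CPM in positive and 77.2 to 382 CPM in negative cells. Depth was 35314 transcripts in positive and 32958 in negative cells.

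The Fgf5 difference with Foxa2 itself changed between stages (1.15 ± 0.26 on the log2 scale, E7.5 less E6.75, edgeR adjusted p = 0.0219), the 1 call among 10 members, against 0.854% of 8661 genes. With DESeq2 it was 1.05 (adjusted p = 0.168).

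The largest of the called gate differences within a stage was that of Fgf3 with Sox2 at E7.5. Fgf3 was at 4.28 to 103 CPM with a median of 17.7 in Sox2-positive cells and at 19.6 to 171 CPM with a median of 114 in negative cells of 10 libraries. It was lower in the positive cells of 10 of 10 libraries (-2.02 ± 0.26, edgeR adjusted p = 7.38e-06). Apart from replicate 2, positive cells stayed at or under 30.6 CPM, and apart from replicate 12, negative cells were at 84.2 CPM or more. The call held in the 19 alternatives in which Fgf3 was tested.

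Fgf5 and Fgfr1 were called in the same comparison, which made 3 of 7 members tested, against 8.76% of all genes. Fgf5 was at 22.0 to 116 CPM with a median of 36.7 in positive and 2.91 to 90.4 CPM with a median of 26.7 in negative cells, higher in 7 of 10 libraries (0.86 ± 0.26, edgeR adjusted p = 0.0401). Fgfr1 was at 88.0 to 205 CPM with a median of 172 in positive and 119 to 306 CPM with a median of 209 in negative cells, lower in 9 of 10 (-0.34 ± 0.10, edgeR adjusted p = 0.0324). Both lie near the threshold: the Fgf5 call was lost without any 1 of replicates 1, 2, 3, 4, 7, 10 and 12 (0.66 to 0.87, edgeR adjusted p = 0.0585 to 0.160), and the Fgfr1 call without any 1 of replicates 1, 4, 10, 11 and 12 (-0.34 to -0.28, 0.0530 to 0.124). Without the library block, neither passed (0.47 for Fgf5 and -0.31 for Fgfr1, edgeR adjusted p = 0.707 and 0.275), and Fgfr1 did not with DESeq2 (-0.35, adjusted p = 0.0590). Epiblast markers summed to 497 to 1432 CPM in Sox2-positive and 128 to 587 CPM in negative cells, and nascent mesoderm markers to 85.6 to 296 and 144 to 1340 CPM. The part of this make-up in the 3 differences was not tested.

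At E6.75, 0 of 9 members tested differed between Sox2-positive and Sox2-negative cells by edgeR, against 0.248% of all genes, with 1 (Fgf8) at an unadjusted p under 0.05. DESeq2 called 0 and gave no adjusted p for 8 of the 9. The negative cells were shallow (8396 against 48137 transcripts). The change of the Sox2 difference between stages gave 0 of 10 calls with either tool, against 1.9%, with 2 members (Fgf5 and Fgfr1) at an unadjusted p under 0.05 in edgeR.

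**Figure D3:**
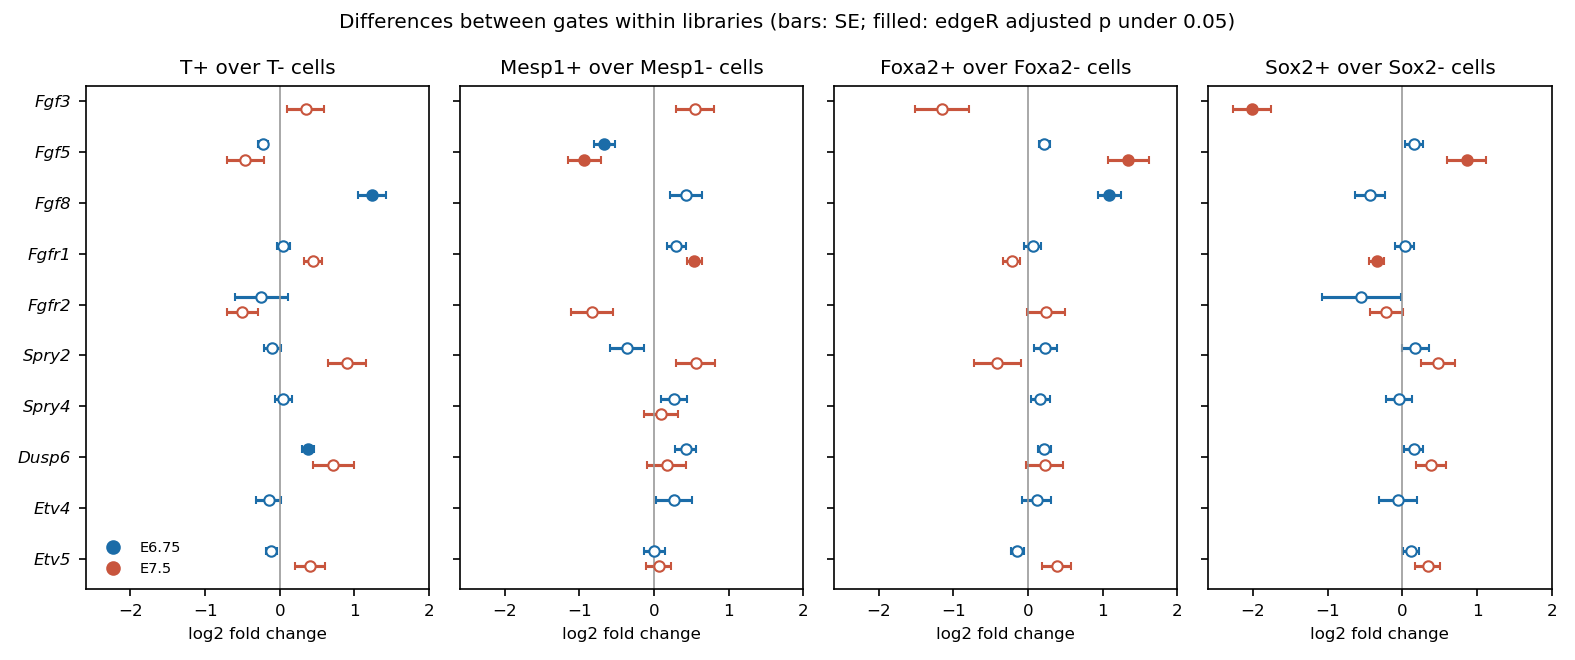
Log2 difference between positive and negative cells for each member tested, by gate and stage, with 1 standard error as the bar and filled points for edgeR adjusted p under 0.05. Fgf8 stands to the right for T (1.23) and Foxa2 (1.09) at E6.75, and Fgf3 far to the left for Sox2 (-2.02) at E7.5.

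Mesp1-positive cells without Foxa2 were also set against Foxa2-positive cells without Mesp1. At E6.75, Fgf5 was at 108, 69.4 and 150 CPM in the Mesp1 cells and at 240.0, 224 and 177 CPM in the Foxa2 cells of replicates 2_13, 2_14 and 2_9. It was lower in 3 of 3 libraries (log2 difference -1.09 ± 0.21, edgeR adjusted p = 0.0373), the 1 call of 8 members tested, against 0.477% of all genes. Without replicate 2_14 it was -0.81 (adjusted p = 0.0623), and with DESeq2 -1.04 (0.0739). Depth was 61109 and 61877 transcripts, over 29 and 64 cells.

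At E7.5, Fgfr1 was the 1 call of 4 members tested in that comparison, against 5.22% of all genes. It was at 125 to 338 CPM with a median of 259 in the Mesp1 cells and 42.5 to 212 CPM with a median of 147 in the Foxa2 cells, higher in the Mesp1 cells of 8 of 8 libraries (0.72 ± 0.14, edgeR adjusted p = 0.00215). Depth was 41463 and 40192 transcripts. The call did not pass at 10000 transcripts per cell (0.48, edgeR adjusted p = 0.658) or without the library block (0.66, 0.0532). Fgf3 was higher in the Mesp1 cells of 7 of 8 libraries but was not called (1.59 ± 0.55, edgeR adjusted p = 0.113).

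**Figure D4:**
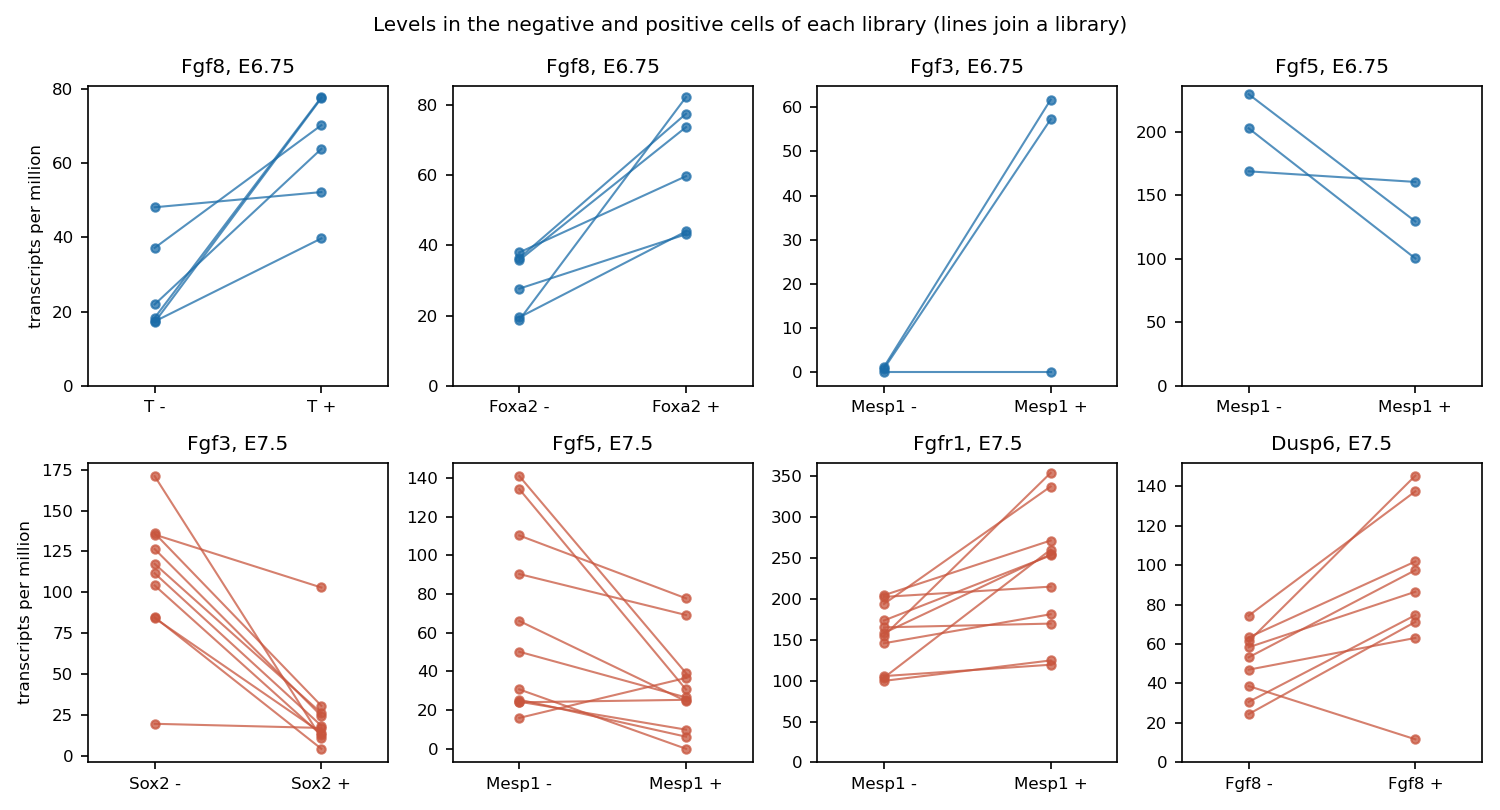
Paired levels in CPM of positive and negative cells, 1 line per library, for member and gate pairs described in the text. Fgf8 lines go up with T and Foxa2 at E6.75, and all 10 Fgf3 lines go down with Sox2 at E7.5.

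Fgf3 at E6.75 was too low for the filter of the gate tests, so its counts are given as they are. T-positive cells held 152 of its transcripts in 153 cells and T-negative cells 9 in 355. In Mesp1-positive and Mesp1-negative cells, replicate 2_13 held 92 transcripts in 28 cells and 3 in 61, replicate 2_14 held 56 in 17 and 5 in 73, and replicate 2_9 held 0 in 5 and 0 in 74. In both libraries that held most Fgf3, it thus lay mostly in the Mesp1-positive cells. Foxa2-positive cells held 42 transcripts in 106 cells and Foxa2-negative cells 119 in 402. The T and Foxa2 totals pool libraries, and 47.9% and 29.5% of the kept cells of replicates 2_13 and 2_14 held Foxa2. Within libraries, Fgf3 was higher in the T-positive cells of 4 of 6 and in the Foxa2-positive cells of 1 of 6. A library with 0 transcripts, such as 2_9, counts as not higher. The Foxa2 totals thus show neither a higher nor a lower level with Foxa2.

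Fits over both stages included Fgf3, which had not passed the filter at E6.75 alone. They gave a change between stages (E7.5 less E6.75) of -3.37 ± 0.65 on the log2 scale for the difference with T (edgeR adjusted p = 0.00601) and of -5.09 ± 0.71 for that with Mesp1 (0.000294), each the 1 call of 10 members, against 0.412% of 8259 and 0.354% of 8185 genes. These sizes rest on 9 and 8 transcripts in the E6.75 negative cells and depend on the prior count of the fit, so they are no measure of the change. At E7.5 alone, the differences were 0.35 ± 0.25 and 0.55 ± 0.26 and were not called (edgeR adjusted p = 0.715 and 0.262). At 10000 transcripts per cell, the change with T was -2.46 (adjusted p = 0.617).

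A last gate used Fgf8 itself, to ask whether cells with the ligand differed in the readout genes. At E6.75, 0 of 7 other members tested differed by edgeR or DESeq2, against 2.98% of all genes, and 0 had an unadjusted p under 0.05. The differences there lay between -0.04 and 0.16, with Dusp6 at 0.16 ± 0.09, Spry2 at 0.14 ± 0.14 and Etv5 at -0.04 ± 0.07.

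At E7.5, Dusp6 was called between Fgf8-positive and Fgf8-negative cells, 1 of 6 members tested, against 0.949% of all genes. It was at 11.7 to 145 CPM with a median of 86.5 in positive and 24.5 to 74.4 CPM with a median of 53.3 in negative cells, higher in 8 of 9 libraries (0.80 ± 0.19, edgeR adjusted p = 0.0362). Spry2 (0.89 ± 0.23, higher in 8 of 9) and Etv5 (0.56 ± 0.16, 7 of 9) did not pass (edgeR adjusted p = 0.0656 and 0.112). Of 60 cells with Fgf8 at E7.5, 52 also held Etv5, 42 Dusp6 and 40 Spry2, where independent detection within each library would give 35.6, 32.0 and 27.4 of the 427 cells. At E6.75, where no level differed, 238 cells with Fgf8 held Etv5 in 221, Dusp6 in 226 and Spry2 in 178, against 206, 205 and 158. Pairs without Fgf8 could exceed independence too, such as Fgfr1 and Spry2 at E7.5 (167 cells against 146). Fgf8 and Fgfr2 at E7.5 did not (18 against 23.1). Fgf8-positive cells were deeper (40284 against 29207 transcripts), and primitive streak markers, of which Fgf8 is 1 of 6, summed to 287 to 2178 CPM in them and 101 to 1131 CPM in the others. The part of either in these differences was not tested.

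The cells set aside as visceral endoderm at E6.75 (35 cells, 23335 transcripts at the median against 41233 in the others) had levels of their own, given as pooled values without a test. Fgf5 was at 311 against 192.1 CPM in the other kept cells, Fgf8 at 69.7 against 40.7 and Spry4 at 84.1 against 57.9. Fgfr1 was at 34.3 against 118 CPM, Dusp6 at 68.6 against 133 and Etv5 at 73.0 against 140. An Fgf3 transcript was in 0 of the 35 cells, which allows a share of cells with a transcript of up to 8.57% at this depth.

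Other genes of the pathway were taken from a list of 78, of which 77 were in the files. Between stages, 18 of 62 tested were higher at E7.5 and 18 lower, against 20% and 18.8% of all genes, with a median log2 difference of 0.04. The receptor gene Fgfr3 (3.82), the ETS factor Ets1 (2.31), the FGF receptor partner Flrt3 (1.30) and the ligand Fgf10 (1.25) were the highest, and the early response genes Egr1 (-2.83) and Fos (-2.42) with the inhibitors Spry1 (-2.01) and Dusp1 (-1.86) the lowest. Of 15 further feedback genes, 3 were higher and 7 lower, and of 9 further targets, 3 and 4. Of 15 genes that make, edit or carry heparan sulphate, the co-factor of FGF binding, 8 were higher and 1 lower, and of 17 signal transduction genes, 1 and 5. For each of these groups the shares of all genes are the same 20% higher and 18.8% lower.

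In the gates, the ERK pathway inhibitor Spred1 was higher in 5 comparisons: T at E6.75 (0.62) and E7.5 (0.58), Mesp1 at E6.75 (0.79) and E7.5 (0.48), and Fgf8 at E6.75 (0.51). The shares of all genes called in these were 3.32%, 2.16%, 1.13%, 6.3% and 2.98%. With T at E6.75, 6 of 58 were higher, led by Hs6st2 (0.99), and 3 lower, led by the epiblast ligand Fgf4 (-1.10), against the 3.32%. In Fgf8-positive cells at E6.75, Hs6st2 was higher (1.12) and Fgf4 lower (-0.90) as well, among 5 higher and 4 lower of 56, against the 2.98%. With Sox2 at E7.5, 6 of 39 were lower, led by the ERK phosphatase gene Dusp9 (-1.52) and the ligand Fgf15 (-1.25), against 8.76% of all genes called in either direction. Dusp9 was higher with Mesp1 (1.35, of 39 tested). Flrt3 was higher with Foxa2 at E7.5 (1.53, the only call of 38, against 2.52% of all genes) and with T (0.97). No gene of the list was called with Foxa2 (58 tested) or Sox2 (57 tested) at E6.75 by edgeR, against 0.465% and 0.248% of all genes.

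The genes whose levels followed a member most closely were found by Pearson's r of log2(CPM + 1) over sums of library by class with at least 5 cells, 26 at E6.75 and 32 at E7.5. These sums share libraries and depth, and r is given as a description. At E6.75 the closest were Fn1 for Fgf3 (0.92), Cnih2 for Fgf5 (0.82), Nanog for Fgf8 (0.84), Stx12 for Fgfr1 (0.77) and Nup62cl for Fgfr2 (0.81). Eomes, a transcription factor gene of the streak, was the third for Fgf8 (0.81). At E7.5 they were Prtg for Fgf3 (0.84), Dab1 for Fgf5 (0.82), Ndufaf1 for Fgf8 (0.68), Pcdh19 for Fgfr1 (0.70) and Trappc11 for Fgfr2 (0.73), and Spry4 was the second for Fgf8 (0.63). No gene was among the 3 closest of the same member at both stages.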

How the data were processed

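The authors deposited expected counts of transcripts in a table of genes by cells, that is observed molecular identifiers corrected for collisions (4096 possible sequences; read from the values). BWA 0.6.2-r126 and bcl2fastq 2.17.1.14 are named in the submitters' processing notes; the genome build, annotation and use of strand are not given in the sources used here. Counts were rounded and summed per library, or per library and gate, over cells with at least 2000 nuclear transcripts; libraries needed 10 kept cells and gates 3. Mitochondrial genes and spike-ins were left out. Sums were fitted in edgeR 4.0.16 (R 4.3.3; TMM, filterByExpr, quasi-likelihood F test), with the library as a block in gates, since both gates come from 1 library. DESeq2 1.42.0 was an alternative, with other depths, filters, gates and left-out libraries. As a check of the scripts, counts were simulated with the same spread for every gene and no difference between libraries other than their totals. There, 93.0% of 4-fold and 46.0% of 2-fold changes were recovered for the stages, 87.0% and 48.0% for the T gate at E7.5. These settings are not those of the data, so the shares do not give the power for the members. All members are named, and other pathway genes by size of change, up to 4 each way. Members and lists were chosen with earlier results of these data known.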

Additional observations from a re-analysis of the deposited data

Results flagged for a closer look

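Single libraries stood apart from the rest of their group in 16 of 89 groups of 4 to 10 libraries, by Dixon's test. All 16 were the highest library of their group. Chance marks about 1 group in 20 only where values are normally distributed. Many of these CPM values rest on few transcripts, and their distribution was not tested. The 16 of 89 thus cannot be read as more than chance would give. Fgfr2 over all kept E6.75 cells was 13.02 CPM in replicate 2_12, against 7.28 in the next library. In T-alone cells at E6.75, Fgfr2 was 20.6 against 4.46 CPM. In E6.75 cells with none of the 4 genes, which were shallow, the highest library stood apart for Fgf8 (60.4 against 24.8 CPM), Fgfr2 (62.3 against 3.02) and Etv4 (49.5 against 18.2). At E7.5, Spry2 in Sox2-alone cells was 53.2 against 16.9 CPM. In T-alone cells at E7.5, 5 members were highest in the 3 cells of replicate 9: Spry2 (156 against 53.5 CPM), Spry4 (208 against 65.5), Dusp6 (365 against 112), Etv4 (52.1 against 26.7) and Etv5 (208 against 108). All 15 kept cells of replicate 9 held only 29 Spry2, 25 Spry4, 35 Dusp6, 4 Etv4 and 40 Etv5 transcripts. These 5 values thus rest on few transcripts and do not show a high level in that library. Also in T-alone cells at E7.5, Fgf8 was 30.8 against 16.0 and Fgfr2 111 against 55.2 CPM. Fgf3 in E7.5 cells with Foxa2 and no Mesp1 was 178 CPM in replicate 2 (75 transcripts in 11 cells), against 3.62 in the next. In E7.5 cells with none of the 4, Spry4 was 35.3 against 16.1 and Etv4 53.9 against 18.7 CPM.

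By edgeR, the change of a gate difference between stages passed the threshold for Fgf5 with Foxa2 (1.15 on the log2 scale) and for Fgf3 with T (-3.37) and Mesp1 (-5.09). Fgf3 did not pass the filter at E6.75 alone, its 2 sizes rest on 9 and 8 transcripts in negative cells and depend on the prior count, and the change with T gave -2.46 (adjusted p = 0.617) at 10000 transcripts per cell. With DESeq2, Fgf5 gave 1.05 (adjusted p = 0.168).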

How the results depend on the processing

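No called difference changed sign under any alternative run. Of 138 differences of single members, 37 changed sign in 69 of 1917 alternative fits, and 0 of these were called before or after. The 8 stage calls held wherever the gene was tested; thinning to 2000 transcripts tested 5 members and called 5, and leaving out single libraries gave 8 or 9. The range of members called when single libraries were left out was 2 to 3 for T at E6.75 (reported 2), 0 to 2 for T at E7.5 (0), 0 to 2 for Mesp1 at E6.75 (1), 2 to 3 for Mesp1 at E7.5 (2), 1 to 1 for Foxa2 at both stages (1), 1 to 3 for Sox2 at E7.5 (3), and 1 to 2 for Mesp1-only against Foxa2-only cells at both stages (1). Without the filter on low counts, more members were called: 4 for T at either stage, 2 and 5 for Mesp1, 2 for Foxa2 at E7.5, 2 and 4 for Fgf8, and 2 and 3 for Mesp1-only against Foxa2-only cells at E6.75 and E7.5. With no replicate block (the library as block left out), the counts were 1 for T at E6.75, 1 for Sox2 at E7.5 and 0 for Mesp1, Foxa2 and Mesp1-only against Foxa2-only cells at both stages and Fgf8 at E7.5. Thinning to 2000 transcripts gave 0 for T, Foxa2 and Mesp1-only against Foxa2-only cells, each at E6.75, for Mesp1 at both stages, and for Foxa2, Sox2 and Mesp1-only against Foxa2-only cells at E7.5. Thinning to 10000 gave 1 for T at E6.75, 2 for Mesp1 at E6.75, and 0 for Foxa2 at both stages and for Mesp1, Sox2 and Mesp1-only against Foxa2-only cells at E7.5. DESeq2 gave 0 for Mesp1, Mesp1-only against Foxa2-only cells and the change of the Foxa2 difference, the first 2 at E6.75, and 2 for Foxa2 and Mesp1-only against Foxa2-only cells at E7.5. Gates of at least 2 transcripts gave 1 for Mesp1 and 2 for Foxa2 at E7.5, and 2 and 3 for Mesp1-only against Foxa2-only cells at E6.75 and E7.5. At E7.5, the latter gave 2 with at least 5000 transcripts per cell and 2 with the lower marker shares of 0.05% and 0.02%; T gave 1 with halved marker shares. Foxa2 at E6.75 gave 2 with no cells set aside. The cause was not tested. Without the block, Fgf3 with Sox2 at E7.5 remained called. No paired analysis was possible because the stages share no replicate numbers; within gates, pairing is by library. Fgf8 gates at E7.5 could not be run after thinning. The filter on low counts left Fgf3 at E6.75, and Fgf8 and Etv4 at E7.5, out of most gate tests. The part of depth in this was not tested.

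The uncalled log2 differences that changed sign were as follows, with the gate and stage, or the gate whose difference was compared between stages, in parentheses. Thinning to 10000 transcripts gave Spry2 0.21 (T E6.75), Fgf5 0.55 (T change), Etv5 -0.30 (Mesp1 E6.75), Dusp6 0.15 (Mesp1 change), Fgfr1 -0.11 (Foxa2 E6.75), Spry4 0.26 (Foxa2 change), Fgfr1 -0.043, Spry2 -0.087, Spry4 0.0018 and Dusp6 -0.16 (Sox2 E6.75), Dusp6 -0.20 and Etv5 -0.47 (Sox2 change), Spry4 -0.058 (Fgf8 E6.75), Etv5 -0.14 (Mesp1-only against Foxa2-only E6.75). Thinning to 2000 gave Dusp6 -0.26 and Etv5 -0.90 (Mesp1 E6.75), Etv5 -0.039 (Sox2 E6.75), Fgf5 -0.081 (Fgf8 E6.75). Gates of at least 2 transcripts gave Etv5 -0.052 (Mesp1 E6.75), Etv5 -0.040 (Mesp1 E7.5), Fgfr1 -0.10 (Foxa2 E6.75), Etv4 -0.14 (Foxa2 change), Dusp6 -0.0031 (Sox2 change), Spry4 -0.036 (Fgf8 E6.75), Fgfr1 -0.065 (Fgf8 E7.5). Title prefix 2 alone gave Fgfr1 -0.00027 and Fgfr2 0.13 (T E6.75), Fgfr1 -0.0019 (Foxa2 E6.75), Fgfr1 -0.043 and Etv4 0.11 (Sox2 E6.75). DESeq2 gave Dusp6 -0.057 (Foxa2 change), Etv4 -0.049 (Sox2 change), Spry4 -0.011 (Fgf8 E6.75), Dusp6 0.017 (Mesp1-only against Foxa2-only E7.5). Setting no cells aside gave Fgfr2 0.10 (T change), Fgfr1 -0.082 (Foxa2 E6.75), Fgfr2 -0.69 (Foxa2 change), Spry4 -0.012 (Mesp1-only against Foxa2-only E6.75). No filter on low counts gave Etv5 -0.034 (Mesp1 E6.75), Spry4 0.028 and Etv4 0.014 (Sox2 E6.75). Halved marker shares gave Etv5 -0.0083 (Mesp1 E6.75), Fgf5 -0.023 (Fgf8 E6.75). The lower marker shares gave Etv5 -0.00083 (Mesp1 E6.75), Fgf5 -0.041 (Fgf8 E6.75). No replicate block gave Spry4 0.010 (Sox2 E6.75), Spry4 -0.00046 (Fgf8 E6.75). With single libraries left out, the ranges that crossed 0 were Spry4 -0.083 to 0.11 (T E6.75), Fgf8 -0.0046 to 0.72, Spry2 -0.59 to 0.11 and Etv5 -0.16 to 0.17 (Mesp1 E6.75), Spry4 -0.0032 to 0.22 and Etv5 -0.028 to 0.13 (Mesp1 E7.5), Fgfr1 -0.040 to 0.15 and Etv4 -0.014 to 0.22 (Foxa2 E6.75), Dusp6 -0.021 to 0.35 (Foxa2 E7.5), Fgfr1 -0.032 to 0.20, Fgfr2 -0.93 to 0.14, Spry4 -0.14 to 0.27 and Etv4 -0.26 to 0.10 (Sox2 E6.75), Spry4 -0.10 to 0.34 and Etv4 -0.43 to 0.023 (Mesp1-only against Foxa2-only E6.75), Dusp6 -0.40 to 0.15 (Mesp1-only against Foxa2-only E7.5). The cause of these changes was not tested.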
